A study of Mus musculus with 93 samples.

Results

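GFP+ cells of mouse cardiac spheroids were compared between wells at the high and at the low end of the range of Hand1. Each well held 10 sorted cells and gave 1 RNA-seq library. Of 93 libraries in the series, 38 came from spheroid GFP+ cells, and 37 of these were ranked by Hand1 after well C9 was left out, which had only 6288 reads on genes. Levels are given as CPM, a gene's reads divided by all reads of its well that were counted on genes, times 1e6. The 12 highest and the 12 lowest wells were selected on Hand1 CPM itself, so the gap in Hand1 between them is a description with no test. What can be tested is whether other genes varied with Hand1 across these wells of 1 label group.

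The spheroids were grown from an embryonic stem cell line carrying the alleles Hcn4-GFP, Tbx1-Cre and Ai9, all 3 of which are shared by every group, and were sorted at day 5.5 after induction with Activin A and Bmp4. GFP reports Hcn4, a pacemaker channel gene of the first heart field. RFP is the lasting Ai9 label of cells with a history of Tbx1-Cre, a driver active in the second heart field. The 46 spheroid RFP+ wells and the 5 GFP+ and 4 RFP+ libraries from embryos of the same genotype serve as comparison, the embryos being dated E7.75 in the protocol and E8.5 in the sample titles. The spheroids derive from 1 stem cell line, and the labels do not assign wells to separate differentiations, so p-values measure the spread between wells, which may be partly technical.

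Hand1 encodes a basic helix-loop-helix transcription factor of the lateral plate mesoderm, the extraembryonic mesoderm and the early left ventricle. Its relative Hand2 acts in overlapping tissues. Bone morphogenetic proteins (Bmps) are secreted ligands that signal through paired kinase receptors and Smad proteins, switch on targets such as the Id and Msx genes, and help to specify lateral and cardiac mesoderm.

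In the 12 highest wells, Hand1 (GRCm38, chr11:57828705-57832818, minus strand) was between 46.3 and 138 CPM, with a median of 66.3. In the 12 lowest it was between 0 and 18.4 CPM, with a median of 10.6. These levels rested on 69 to 232 reads per well at the top and on 0 to 42 at the bottom. The highest well was D9, and the single well without a Hand1 read was A8, where 0 of 874172 reads allow a level of up to 3.43 CPM (3 counts). At each cut the wells on either side had overlapping counting intervals. Just inside the high set lay C11 at 46.3 CPM (95% Poisson interval 36.9 to 57.4), and just outside lay H9 at 43.5 CPM (30.4 to 60.2). At the other end, D11 was the last low well at 18.4 CPM (12.8 to 25.6) and B9 the first one outside at 24.04 CPM (19.2 to 29.7). Such intervals cover counting error only, because the reads carry no molecular identifiers.

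**Figure D1:**
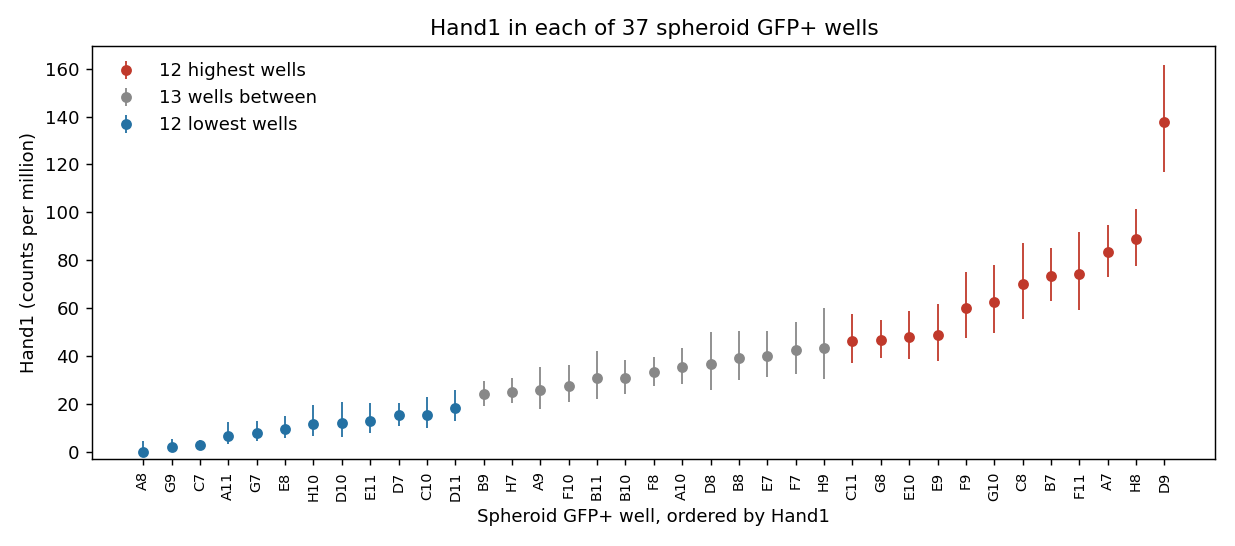
Hand1 level (CPM, linear axis) in each of the 37 spheroid GFP+ wells, ordered from lowest to highest. Bars are 95% Poisson intervals of the count, and colours give the 12 lowest, the 13 wells between and the 12 highest. The levels climb from 0 in A8 to 138 CPM in D9, with a step from 18.4 to 24.04 CPM at the low cut. At both cuts the intervals of the neighbouring wells overlap.

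Depth and plate position of the 2 ends overlapped. Library totals were between 1116886 and 2968273 reads in the high wells and between 874172 and 4371849 in the low wells (two-sided permutation test of the means, p = 0.823). Between 13147 and 14358 genes were detected per high well and between 12837 and 14645 per low well (two-sided permutation test, p = 0.805). Every plate column from 7 to 11 held high and low wells, with 2 or 3 high and 1 to 3 low wells each. By row, B and F together held 3 of the high wells and no low well.

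**Figure D2:**
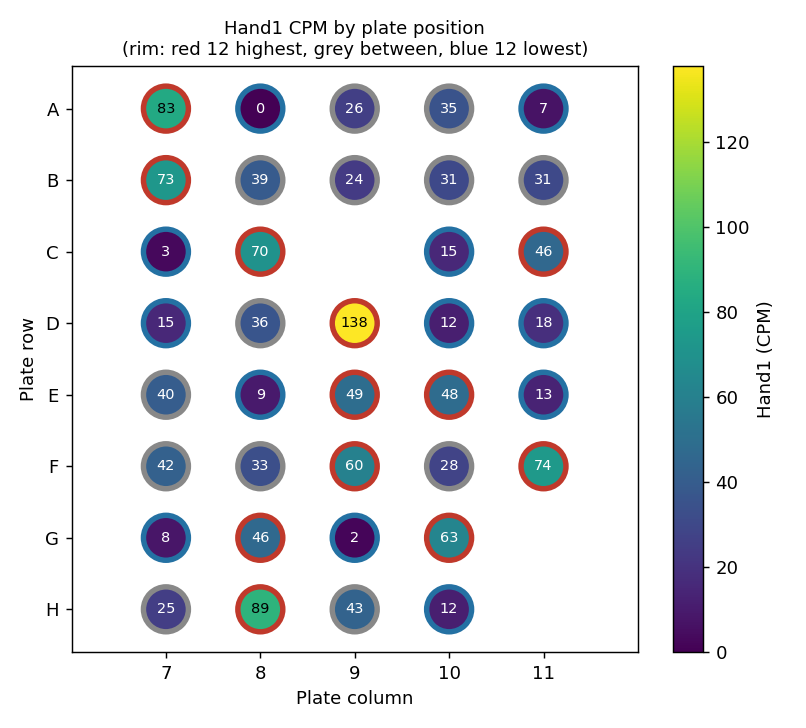
Hand1 by plate position, with plate columns 7 to 11 on the x axis and rows A to H on the y axis. The number and the fill give CPM and the rim gives the set, and high and low wells lie in every column.

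Hcn4, the gene that drives the reporter, had reads in all 37 wells, between 1.75 and 15.1 CPM in the high wells (median 8.27) and between 1.23 and 17.2 CPM in the low wells (median 5.53; log2 difference 0.18 ± 0.40 SE, edgeR adjusted p = 0.987). In spheroid RFP+ wells its median was 0 and its highest level 2.59 CPM. Tbx1 had a read in 2 of the 37 wells and in none of the 12 high ones. Among early cardiac factors, Nkx2-5 had a read in 1 high and 0 low wells, and Tbx5, a first heart field factor, in 5 high and 6 low wells. Of 21 listed cardiac transcription factors, 10 had enough reads to be tested between the ends. The summed level of the list had a median of 363 CPM in the high and 328 CPM in the low wells. A few abundant members can carry such a sum. The wells were sorted on the Hcn4 reporter, so reads of Hcn4 in them are not a separate finding. Nkx2-5 was near 0.

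Across the genome the comparison called no gene. edgeR's quasi-likelihood test on 9863 genes, Hand1 left out, gave 0 calls at an adjusted p under 0.1, the threshold of the study (0% called). At an unadjusted p under 0.05 there were 540 genes, or 5.48% of those tested, 292 of them higher and 248 lower in the high wells. DESeq2 also called 0, with 799 genes at an unadjusted p under 0.05. Over all tested genes the median log2 difference was 0.00087 and 50.2% of differences were positive. No member described in this comparison passed this test, and values are given as levels and differences only. With plate row added to the fit as a factor, edgeR called 3 genes, Id1, Id3 and Fgfbp1. In wells of 10 cells, fewer cells that express a gene and less RNA per cell cannot be told apart.

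Bmp4 encodes the Bmp ligand that was also added to the cultures. It was between 14.6 and 100.0 CPM in the high wells (median 34.96) and between 10.0 and 59.9 CPM in the low wells (median 41.0). The sets overlapped almost entirely, with 3 high wells above every low one, and the log2 difference was 0.28 ± 0.31 SE (edgeR adjusted p = 0.973). Over the 37 wells its Spearman correlation with Hand1, as a description, was 0.137.

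Msx2, a homeobox gene and a target of Bmp signalling, lay higher in most high wells. It was between 11.5 and 108 CPM there (median 27.6) and between 1.96 and 45.0 CPM in the low wells (median 16.2). Of the high wells, 11 were above the low median, 3 were above every low well, and the log2 difference was 1.05 ± 0.39 SE (unadjusted p = 0.0114, edgeR adjusted p = 0.901). Hand2 showed a similar spread. It was between 8.37 and 37.04 CPM in the high wells (median 25.2) and between 1.14 and 32.4 CPM in the low wells (median 10.3), a log2 difference of 0.81 ± 0.34 SE (unadjusted p = 0.0236, edgeR adjusted p = 0.901).

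The 3 abundant Id genes, which encode inhibitors of basic helix-loop-helix factors and are direct Bmp targets, lay higher in most high wells, and Id1 and Id3 had the smallest unadjusted p-values of the Bmp lists. Id1 was between 60.1 and 238 CPM in the high wells (median 124) and between 39.2 and 135 CPM in the low wells (median 85.7). Its log2 difference was 0.75 ± 0.18 SE (unadjusted p = 0.000176, edgeR adjusted p = 0.767), and 5 high wells were above every low one. Id3 was between 156 and 516 CPM in the high wells (median 329), against 112 to 274 CPM in the low wells (median 241). There, 8 of 12 high wells exceeded all low wells, with a log2 difference of 0.53 ± 0.15 SE (edgeR adjusted p = 0.767). Id2 was between 244 and 662 CPM in the high wells (median 472) and between 67.5 and 553 CPM in the low wells (median 305), a log2 difference of 0.50 ± 0.19 SE (edgeR adjusted p = 0.901). All 3 ranges overlapped. With plate row as a factor, Id1 was called at a log2 difference of 0.98 ± 0.16 SE (edgeR adjusted p = 0.0136) and Id3 at 0.71 ± 0.14 SE (edgeR adjusted p = 0.0673). Smurf1, a ubiquitin ligase that turns over Bmp pathway Smads, lay the other way, between 5.30 and 22.7 CPM in the high wells (median 15.6) and between 13.1 and 40.2 CPM in the low wells (median 25.2), a log2 difference of -0.72 ± 0.23 SE (edgeR adjusted p = 0.794).

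**Figure D3:**
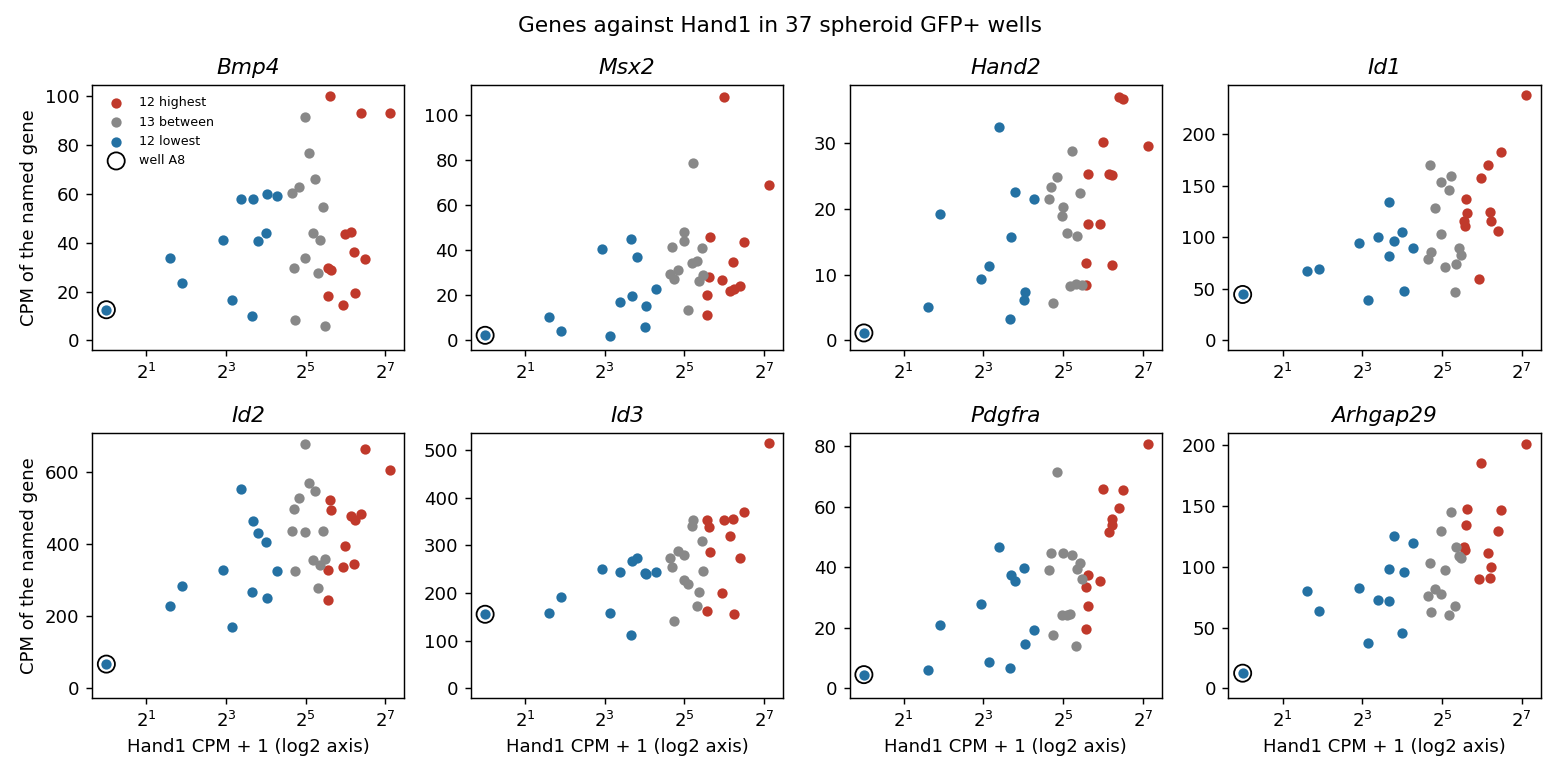
Levels of 8 genes (CPM, linear y axis) against Hand1 CPM plus 1 (log2 x axis), 1 point per spheroid GFP+ well. Red, grey and blue points are the 12 highest, the 13 between and the 12 lowest wells, and the ring marks A8, the well without a Hand1 read. A8 is the lowest of 37 wells for Hand2, Id2, Pdgfra and Arhgap29, and in every panel the high and low wells overlap.

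Read by role, the Bmp pathway had few members above the filter on low counts (filterByExpr, minimum count 10). Of 9 ligands, 4 were tested and 3 had positive differences (median log2 difference 0.36), with Bmp5 at 0.59 ± 0.26 SE and Bmp7 at -0.22. Of the 7 tested receptors and Smads, 6 were positive with a median log2 difference of 0.06, and none reached an unadjusted p under 0.05. Among 8 tested targets of 15, 6 were positive with a median of 0.46, and Id1, Id2, Id3 and Msx2 had unadjusted p under 0.05. Hey1, a Notch and Bmp responsive repressor, was the most negative of them at -1.18 ± 0.60 SE. Of the inhibitors, 5 were tested and 3 were positive, with a median of 0.10. Against the 50.2% positive of all genes (median 0.00087), each of these lists had a larger share of positive differences, with 0 calls in each. The lists held only 4 to 8 tested genes, so 1 gene moves a share widely. The slopes on Hand1 described below differed for the ligands. Over all 37 wells 3 of 7 tested ligands were positive (median -0.005), and over the 13 wells between 1 of 6 (median -0.42). For the targets these counts were 10 of 13 (median 0.16) and 4 of 9 (median -0.06).

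The lateral plate and splanchnic mesoderm list held 20 genes besides Hand1, and 7 passed the filter. All 7 differences were positive with a median of 0.33: Msx2, Hand2, Tbx3, Prrx1, Twist1, Bmp4 and Prrx2, which encodes a limb and lateral mesoderm homeobox factor. Tbx3, a T-box gene, was between 3.37 and 23.8 CPM in the high wells and between 1.00 and 9.61 CPM in the low wells, a log2 difference of 0.79 ± 0.37 SE (edgeR adjusted p = 0.901). The 13 members below the filter were sparse in both sets. Foxf1, a splanchnic mesoderm factor, had reads in 9 high and 8 low wells. Gata5 had reads in 10 high and 6 low wells, at up to 26.9 CPM in the high and up to 7.51 CPM in the low wells. The summed level of the list was between 171 and 490 CPM in the high wells (median 323) and between 80.1 and 358 CPM in the low wells (median 225), so the ranges overlapped.

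Genes of the extraembryonic mesoderm, allantois and amnion did not lie to one side. Of 24 listed, 12 were tested, 7 were positive and the median log2 difference was 0.09. In the slope over all 37 wells described below, 11 of 15 tested members were positive (median 0.13). Pmp22, a myelin and growth arrest gene, was at 0.90 ± 0.42 SE (unadjusted p = 0.0386, edgeR adjusted p = 0.901), and the collagen gene Col3a1 at 0.66 ± 0.36 SE. The simple epithelial keratins Krt8 and Krt18 were at -0.20 ± 0.17 and -0.11 ± 0.16 SE, at levels of 500 to 2152 CPM for Krt8 and 1234 to 4153 CPM for Krt18 over the 24 wells. Tbx4, an allantois T-box gene, had a read in 12 high and 11 low wells, at no more than 17.0 CPM.

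Cardiac genes differed widely between wells of the same set. Of 21 cardiac transcription factors, 10 were tested, 8 were positive, and the median log2 difference was 0.23. Isl1, a progenitor factor of both heart fields, was between 31.2 and 114 CPM in the high wells (median 60.7) and between 28.0 and 85.3 CPM in the low wells (median 52.2; log2 difference 0.22 ± 0.19 SE, edgeR adjusted p = 0.969). Gata4 had reads in all 37 wells, with medians of 4.47 CPM in the high and 4.81 CPM in the low wells, and did not pass the filter. Tbx20 had a read in 8 high and 7 low wells. Myl7, the atrial myosin light chain, was between 0 and 228 CPM in the high wells (median 2.30) and between 0 and 191 CPM in the low wells (median 0.648). Tnnt2, cardiac troponin T, had medians of 3.80 and 2.61 CPM. Wells over 50 CPM of Myl7 numbered 7, namely G8 and G10 in the high set, C7 and E8 in the low set and B9, B11 and H7 between them. The tested contraction and calcium genes numbered 10, 8 of them positive, with a median of 0.27 and no unadjusted p under 0.05.

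In the other mesoderm lists a few members had small unadjusted p-values. Pdgfra, a growth factor receptor of mesodermal cells, was between 19.5 and 80.6 CPM in the high wells (median 52.8) and between 4.58 and 46.9 CPM in the low wells (median 20.1). Of 12 high wells, 7 exceeded every low well, and the log2 difference was 1.10 ± 0.30 SE (unadjusted p = 0.000724, edgeR adjusted p = 0.767). In the second heart field list, Fgf10, a fibroblast growth factor, was at 1.39 ± 0.43 SE and Aldh1a2, the retinoic acid synthesis enzyme, at 1.30 ± 0.51 SE (edgeR adjusted p = 0.767 and 0.901), and 6 of 7 tested members were positive with a median of 0.22. T (brachyury) had medians of 8.04 and 10.4 CPM, and Mesp1 a read in 4 high and 1 low wells. The streak list had 4 tested genes, 3 of them positive (median 0.07). The endothelium and blood list had 1 tested gene (-0.56), and its summed level was between 10.9 and 51.9 CPM in the high wells and between 20.6 and 76.9 CPM in the low wells.

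Outside mesoderm, pluripotency and trophoblast genes lay to the negative side and mitosis genes to the positive side. Of 14 tested pluripotency genes, 5 were positive with a median of -0.39. Nanog was at -1.01 ± 0.48 SE (edgeR adjusted p = 0.901) and Pou5f1 at 0.18 ± 0.28 SE. Among 5 tested trophoblast genes 1 was positive (median -0.44), with Tfap2c at -1.03 ± 0.39 SE. The neural and surface ectoderm list had 2 of 7 positive (median -0.20) and the endoderm list 3 of 4 (median 0.14). Paraxial mesoderm had 1 tested gene, Dll1 at 0.13. The epicardium list had 2, of which 1 was positive, Aldh1a2 named above (median 0.54). Smooth muscle and actin genes had 8 of 12 positive (median 0.10), and immediate early and heat shock genes 3 of 7 (median -0.04). All 18 genes of the G2 and M phase list had positive differences, with a median of 0.33, and Ccna2 (cyclin A2), at 0.59 ± 0.20 SE, had the smallest unadjusted p of them (p = 0.00526, edgeR adjusted p = 0.901). Its levels were between 47.7 and 216 CPM in the high and between 14.9 and 125 CPM in the low wells. The S phase list had 14 of 18 positive with a median of 0.09, and the p53 targets 2 of 14 with a median of -0.12. Without A8, the 18 mitosis genes were still all positive (median 0.29), as were 8 of 9 lateral plate genes (median 0.27). Without the wells over 50 CPM of Myl7 in the 2 sets (G8, G10, C7 and E8), the medians of these lists were 0.34 and 0.47.

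**Figure D4:**
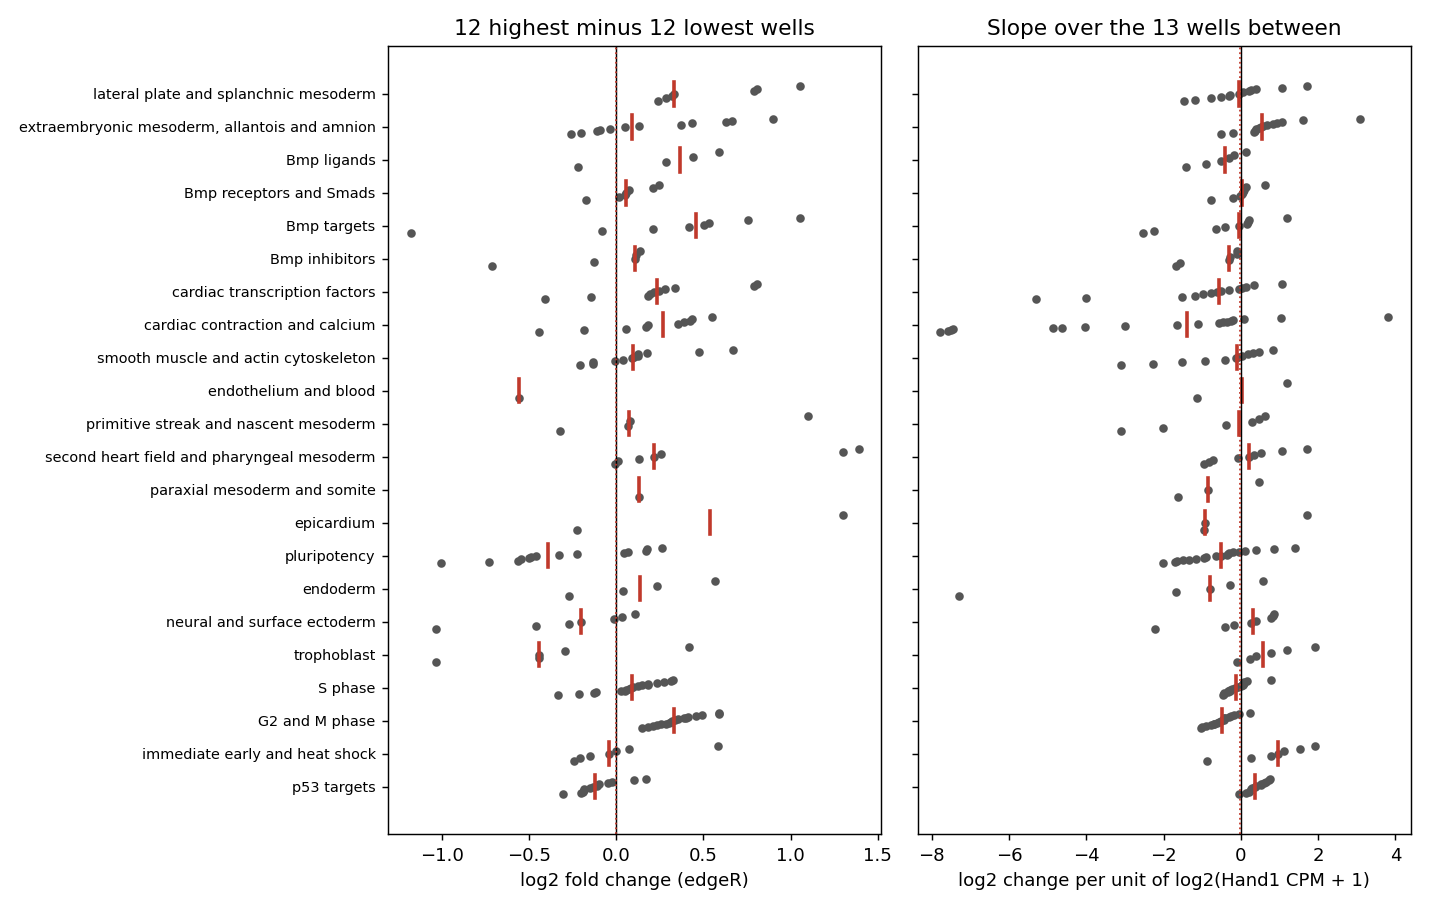
log2 differences of the tested members of 22 gene lists. The left panel gives the 12 highest minus the 12 lowest wells, and the right panel the slope over the 13 wells between, where more genes passed the filter. Points are genes, red bars are list medians and the dotted line is the median of all tested genes. All 18 G2 and M phase genes lie right of 0 on the left, and 1 of 18 does on the right.

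A slope over all 37 wells used the wells between as well. It gave the log2 change of a gene for each doubling of Hand1 CPM plus 1, and edgeR called 20 of 12225 genes (0.164% called), 18 with a positive and 2 with a negative slope. These genes were named after their values were seen. Among them were the Bmp targets Id1 (0.25 ± 0.05 SE, adjusted p = 0.0353), Id2 (0.24 ± 0.05 SE, adjusted p = 0.0353), Id3 (0.18 ± 0.04 SE, adjusted p = 0.0430) and Msx2 (0.45 ± 0.11 SE, adjusted p = 0.0738). Arhgap29 (0.29 ± 0.05 SE, adjusted p = 0.00555) and Pdgfra (0.42 ± 0.08 SE, adjusted p = 0.00947) had the smallest p-values. Rgs5, a G protein regulator of pericytes, the chromatin proteins Hmga2 and Cbx5, the spindle component Ska3, Ccna2, Depdc1b, Hoxb2, Igsf3, Rbms3, Rnd3, Sfpq and Slc38a4 also had positive slopes. Tob1, an antiproliferative gene, and Mthfd1, a folate enzyme, had negative ones. Bmp4 (0.19, adjusted p = 0.633) and Hand2 (0.30, adjusted p = 0.302) were not called. Without the wells over 50 CPM of Myl7, a fit added after seeing the data, edgeR called Hand2 (0.48 ± 0.10 SE, adjusted p = 0.0454). That fit kept well A8.

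These 20 calls rested on well A8. Without it there were 0 calls by edgeR, with 666 genes at an unadjusted p under 0.05, and the slopes of Arhgap29 and Pdgfra were then 0.24 ± 0.05 and 0.39 ± 0.08 SE (adjusted p = 0.175 for both). The slopes of Id1 and Id3 were then 0.24 ± 0.06 and 0.19 ± 0.05 SE (adjusted p = 0.330 for both), about as large as with A8. Those of Id2 and Msx2 were 0.17 ± 0.05 and 0.40 ± 0.12 SE (adjusted p = 0.692 and 0.673). Of the 18 genes with a positive slope, A8 had the lowest level of all wells for 14 and was among the lowest 3 for every one. Id2, for instance, was at 67.5 CPM in A8 and at 169 CPM or more elsewhere, and Arhgap29 at 12.6 against 37.2 CPM or more. A8 also had the lowest median correlation with the other wells (r of 0.872 between log2 CPM, against up to 0.920) and 1 of the 37 wells had fewer reads. Without D9 the slope called 3 genes, without G9 it called 5, without G7 8, without C7 11 and without C8 13. Without E8, a low well with high Myl7, it called 52. With the rank of Hand1 in place of its log2 level, Arhgap29 alone was called.

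The 13 wells between the sets were not used in the comparison of the ends, but they were part of the slope over all 37 wells. The signs of the 20 genes called by that slope are therefore no check on unused wells. Within these 13 wells the 20 genes gave no common direction. Hand1 ran from 24.04 to 43.5 CPM in these wells, a narrower range. Of the 20 genes above, 10 had the same sign of slope and 0 were called by edgeR. Id1 was at -0.63 ± 0.44 SE (unadjusted p = 0.166), Id2 at -0.42 ± 0.30 SE (p = 0.167), Pdgfra at -0.39 ± 0.54 SE (p = 0.477) and Arhgap29 at 0.47 ± 0.35 SE (p = 0.194). Of 539 genes with an unadjusted p under 0.05 between the ends that were tested here too, 41.9% had the same sign, against 46.9% of all 9839 genes tested in both. The mitosis list had 1 positive of 18 (median -0.48), the p53 targets 13 of 14 (median 0.38) and the lateral plate genes 6 of 13 (median -0.06). Extraembryonic mesoderm genes had 12 positive of 14 (median 0.54), and contraction and calcium genes 3 of 18 (median -1.39). Trophoblast genes had 5 positive of 6 (median 0.58), and pluripotency genes 4 of 19 (median -0.52). Over all genes the median was -0.01.

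The fit over these 13 wells called 9 of 10943 genes (0.0822% called). The contraction genes Tnnt2 (-7.59 ± 1.35 SE, adjusted p = 0.0309) and Tnni1 (-4.62 ± 0.92 SE, adjusted p = 0.0684) had negative slopes. The other 7, Gla, Atf3, Rnh1, Gnb1l, Tagln2, Tgoln1 and E330020D12Rik, had positive ones, Atf3, a stress response factor, at 1.93 ± 0.33 SE (adjusted p = 0.0225). Tnnt2 was between 0 and 125 CPM in these wells, and its 3 high-Myl7 wells had Hand1 at 24.04, 25.0 and 30.6 CPM. Without all wells over 50 CPM of Myl7 the fit called 1 gene, Atf3, and without F7 or without B9 edgeR called 0 (513 and 549 genes at an unadjusted p under 0.05).

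By a ranking of 6990 genes with a mean of at least 20 CPM, the patterns most like Hand1 over the 37 wells were those of Ap2b1, an adaptor of clathrin coats (Spearman correlation 0.655), Arhgap29 (0.645), Pdgfra (0.601), Igsf3 (0.595), Polr3b, a subunit of RNA polymerase III (0.548), Id1 (0.534), Id3 (0.534) and Lsm8 (0.528). These are descriptions, since all wells share their library steps and the genes were ranked on the same wells. Ap2b1 was between 59.1 and 112 CPM in the high wells and between 37.1 and 75.5 CPM in the low wells. Polr3b was between 30.6 and 63.8 CPM in the high wells and between 15.0 and 41.4 CPM in the low wells. Lowest in the ranking was Tob1 (-0.607).

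The upstream sequence of 3 genes is shown because Hand proteins bind DNA with partner proteins at E-box motifs of the form CANNTG. The windows are the 250 bases before the RefSeq start (GRCm38.p6), 5′ to 3′ on the gene's strand, with each CANNTG in capitals. The motif equals its own reverse complement in this form, so both strands are covered.
Bmp4, chr14:46390670-46390919, minus strand: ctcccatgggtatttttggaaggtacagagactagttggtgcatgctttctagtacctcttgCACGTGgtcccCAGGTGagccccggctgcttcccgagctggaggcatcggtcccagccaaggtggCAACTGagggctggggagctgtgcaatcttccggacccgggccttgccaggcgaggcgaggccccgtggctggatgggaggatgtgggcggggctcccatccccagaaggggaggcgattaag
Hand2, chr8:57320733-57320982, plus strand: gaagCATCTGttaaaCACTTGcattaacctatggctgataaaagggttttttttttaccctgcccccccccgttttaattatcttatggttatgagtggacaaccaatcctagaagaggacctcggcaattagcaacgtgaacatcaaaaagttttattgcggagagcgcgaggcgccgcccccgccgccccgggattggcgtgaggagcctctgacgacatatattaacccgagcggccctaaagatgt
Pdgfra, chr5:75152001-75152250, plus strand: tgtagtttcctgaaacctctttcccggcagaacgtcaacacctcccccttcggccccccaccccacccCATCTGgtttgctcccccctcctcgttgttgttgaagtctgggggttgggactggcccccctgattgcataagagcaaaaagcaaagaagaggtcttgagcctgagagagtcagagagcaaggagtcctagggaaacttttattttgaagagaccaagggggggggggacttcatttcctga
Bmp4 held 3 matches, Hand2 held 2 and Pdgfra held 1. Of all 32851 windows of this length, 66.2% held at least 1, so a match does not set these genes apart, and a match is a description and not a site of binding. Of the other named genes, Hand1 and Id1 are named only.

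The label groups place these genes between the 2 sorted populations, a comparison that does not use Hand1 to choose wells. In 37 GFP+ against 46 RFP+ spheroid wells, 39.6% of 9990 tested genes were called with more in GFP+ wells and 38.4% with more in RFP+ wells, so a call was the usual outcome. GFP+ wells filled plate columns 7 to 11 and RFP+ wells columns 1 to 6, so the sorted label and the position on the plate cannot be told apart. Hand1 was higher in GFP+ wells by a log2 of 4.38 ± 0.37 SE (edgeR adjusted p = 4.1e-19). In RFP+ wells it was between 0 and 19.4 CPM, with no read in 32 of 46 wells, where 3 counts correspond to 0.530 to 6.74 CPM. The low wells of the GFP+ population, at 0 to 18.4 CPM, thus lay within the RFP+ range for Hand1, and the 13 wells between and the 12 high wells lay above it.

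In the low wells, related genes had medians above those of RFP+ wells. Hand2 was between 0 and 8.09 CPM in RFP+ wells (median 0), and higher in GFP+ wells by a log2 of 4.24 ± 0.30 SE (edgeR adjusted p = 6.9e-24). Its median in the low-Hand1 wells was 10.3 CPM, and that of Msx2 was 16.2 CPM against 0.999 CPM in RFP+ wells. Msx2 was higher in GFP+ wells by 3.56 ± 0.31 (edgeR adjusted p = 5.5e-19), Bmp4 by 2.14 ± 0.24 (adjusted p = 2.6e-13) and Rgs5 by 4.41 ± 0.23 (adjusted p = 1.4e-32). Pdgfra and Id3 lay the other way. Pdgfra was lower in GFP+ wells by a log2 of -1.64 ± 0.13 SE (edgeR adjusted p = 4.7e-21), with RFP+ wells between 55.2 and 168 CPM (median 110), and Id3 was lower by -0.58 ± 0.08 SE. Id1 and Id2 were higher in GFP+ wells by 0.27 ± 0.11 and 0.76 ± 0.11 SE (edgeR adjusted p = 0.0204 and 3.6e-09). All 18 mitosis genes were lower in GFP+ wells (median log2 difference -0.69). Of 9 tested lateral plate genes, 4 were called higher and 2 lower in GFP+ wells, and of 11 tested extraembryonic mesoderm genes 8 were called higher and 1 lower.

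**Figure D5:**
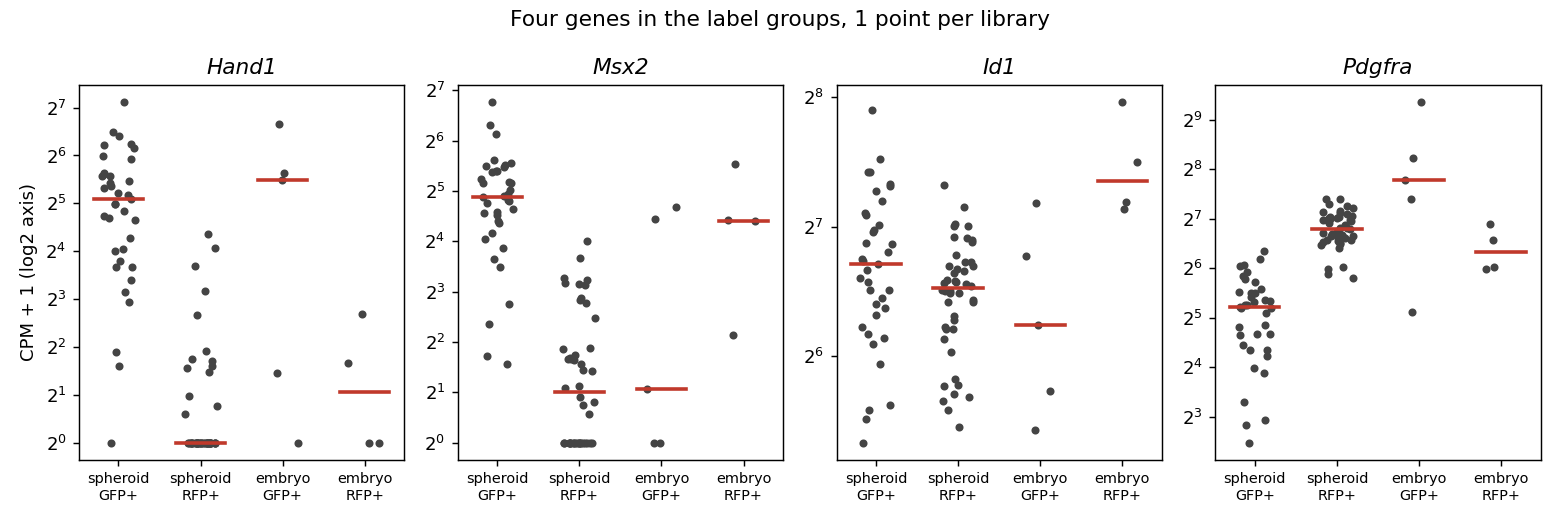
Hand1, Msx2, Id1 and Pdgfra (CPM plus 1, log2 axis) in the 37 spheroid GFP+, 46 spheroid RFP+, 5 embryo GFP+ and 4 embryo RFP+ libraries. Each point is a library and red lines are medians. Hand1 and Msx2 are higher in spheroid GFP+ than in RFP+ wells, and Pdgfra is lower.

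Embryo libraries also varied in Hand1. The 5 GFP+ libraries were at 49.0, 43.6, 0, 1.76 and 99.5 CPM, and the 4 RFP+ libraries at 2.19, 5.46, 0 and 0 CPM. The library at 0 among the GFP+ ones had 712732 reads, which allow up to 4.21 CPM, and the RFP+ ones at 0 allow up to 2.03 and 2.41 CPM. Msx2 was at 24.5, 20.6, 0, 0 and 1.09 CPM in the same GFP+ libraries and at 20.4, 45.1, 20.1 and 3.38 CPM in the RFP+ libraries. Pdgfra was at 33.7, 167, 219, 298 and 654 CPM in the GFP+ libraries and at 62.0, 64.2, 93.9 and 118 CPM in the RFP+ libraries. The groups overlapped for each of these 3 genes. For Bmp4, Id2 and Id3 they did not. Bmp4 was at 121.6 CPM or more in GFP+ and at 83.3 CPM or less in RFP+ libraries. Id2 was at 1048.1 CPM or more in GFP+ and at 727.6 CPM or less in RFP+ libraries. Id3 lay the other way, at 329.4 CPM or less in GFP+ and at 618.9 CPM or more in RFP+ libraries. Id1 overlapped, at 42.0 to 144.3 CPM in GFP+ and 139.6 to 248.5 CPM in RFP+ libraries. Differences between embryo groups were not tested here.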

How the data were processed

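RNA from 10 sorted cells per well was made into 1 RNA-seq library each. Per the submitters' processing notes the tools were Trimmomatic 0.36, HISAT2 2.0.4 and featureCounts 1.5.2 of Subread, with the build mm10 (GRCm38). The authors deposited whole read counts per gene, without normalization, for 24514 symbols. Populations come from the sample titles. The rule on Hand1, the wells, the 22 gene lists and the named genes were chosen with earlier results of these data known.

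The tests ran in edgeR 4.0.16, with limma 3.58.1, under R 4.3.3: TMM normalization, filterByExpr (minimum count 10), quasi-likelihood F-test and Benjamini-Hochberg adjustment over all tested genes, with adjusted p under 0.1 called. The standard error is the log2 difference over the root of F. CPM in the text use library totals. DESeq2 1.42.0 was an alternative, as were other normalizations, filters, set sizes, rankings, covariates and single wells left out. The slope over 37 wells was set as an alternative at the outset, and its own checks and the fits without high-Myl7 wells were added after seeing the data. Permutation tests used 100000 resamples. Named genes were to be Hand1, Bmp4, Msx2, 12 cardiac and mesoderm genes, the genes called and the 8 most like Hand1. As the ends gave no call, list members were named after their values were seen. No 2 GFP+ wells were near-identical (highest r 0.946), and 6 RFP+ pairs passed r 0.97. Library totals, which set the precision of a level, are in the results. Tests were tried on simulated counts first.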

Additional observations from a re-analysis of the deposited data

How the results depend on the processing

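The comparison of the 12 highest with the 12 lowest wells called 0 genes by edgeR under every normalization, filter, ranking and set size tried and without each of the 24 wells in turn (0 to 0), with 540 genes at an unadjusted p under 0.05 in the fit as reported. Exceptions were plate row as a factor, with 3 calls (Id1 at 0.98, Id3 at 0.71 and Fgfbp1 at -2.61), and the slope over all 37 wells, with 20. That slope called 71 genes with DESeq2, 309 without a filter, 9 at an adjusted p under 0.05, 7 with plate row as a factor, 1 on the rank of Hand1, 0 without A8 and 32 without high-Myl7 wells, and 0 to 52 without single wells. Of its 20 genes, 15 were among the 32, and Hand2 and Pmp22 were among those newly called. The slope over the 13 wells between called 253 genes without a filter, 5 with library total as a covariate, 1 without high-Myl7 wells, and 0 to 14 without single wells (3 without H9 or B8, 14 without F10). GFP+ against RFP+ wells called 7789 genes, 13056 without a filter and 7647 with the near-identical RFP+ wells summed. Named genes were recomputed between the ends, in the slope over 37 wells and in GFP+ against RFP+ wells, and none changed sign within its comparison. The slope over the 13 wells between was not part of this check, and there 10 of the 20 genes had the same sign. Between the ends, all 7 lateral plate and all 18 mitosis differences were positive with DESeq2 size factors and with total counts too. The cause of these differences was not tested, except that fits without a filter test more genes. No paired analysis was possible because the wells carry no replicate numbers shared between groups, and summing near-identical GFP+ wells was not run because there were none. In the fit between the ends as reported, 13 of 20 lateral plate genes fell below the filter on low counts, and the slope over 37 wells tested 15 of the 20.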
